A study of Mus musculus with 6 samples.

Results

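Semaphorins, with their plexin and neuropilin receptors, were followed by symbol in hippocampal RNA of mice injected with substance P (SP). The members were 20 semaphorin genes (Sema3a to Sema3g, Sema4a, Sema4b, Sema4c, Sema4d, Sema4f, Sema4g, Sema5a, Sema5b, Sema6a to Sema6d and Sema7a), 9 plexin genes (Plxna1 to Plxna4, Plxnb1 to Plxnb3, Plxnc1 and Plxnd1) and 2 neuropilin genes (Nrp1 and Nrp2), which makes 31 of the 55421 genes in the table. SP is a neuropeptide released by sensory nerves. Wild-type male C57BL/6N mice aged 8-10 weeks received 100 µL of 10 µM SP under the skin daily for 14 days, and the vehicle group received the same volume of saline. There were 3 SP and 3 vehicle libraries, each from the hippocampus of 1 mouse, and no animal carried a transgene or deletion. SP was given outside the brain, and the RNA was of the whole tissue, so that fewer cells of a type and less RNA per cell cannot be told apart.

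Semaphorins are guidance proteins that steer axons and dendrites, and in the adult brain they also act on synapses, glia and blood vessels. Class 3 semaphorins are secreted, and most of them bind a neuropilin, which passes the signal to a class A plexin or, for some, Plxnd1. The class 4 to 6 proteins span the membrane and class 7 is held by a lipid anchor. Plexins carry a GTPase-activating domain inside the cell and act on small GTPases and on the cytoskeleton. In the hippocampus these molecules are known for shaping mossy fibre paths, spine number and layer-specific input.

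The expression unit is CPM, counts scaled by the normalized library size as edgeR's cpm function gives them, and fold changes are log2 values of SP relative to vehicle from edgeR's quasi-likelihood test with the replicate number as a block. Libraries held 22349964 to 27605935 counts, so that 3 counts, the number a count of 0 allows, come to 0.109 to 0.135 CPM. These limits cover counting error only. The members together took 0.189% to 0.212% of all counts, the highest share in SP replicate 2. Each member was above the low-count filter. Each library is a separate mouse, and n = 3 per group throughout.

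No member was a differentially expressed gene (DEG) at FDR < 0.1 and |log2FC| > 0.3. Of 17069 genes tested, 5 were (0.0293%). At an unadjusted p below 0.05, 7 of 31 members were higher in SP (22.6%), where the background over all genes was 4.48%, and 3 were lower (9.68%), where it was 5.59%. By non-overlap of the groups, 8 members were higher in all SP libraries than in any vehicle library (25.8%; background 9.19%), and 3 were lower (9.68%; background 9.03%). The share of lower members without overlap was near its background. The 7 higher members were 6 without SP replicate 1 (background 5.37%), 5 without SP replicate 2 (5.74%) and 11 without SP replicate 3 (7.11%). They were 4 without vehicle replicate 1 (3.69%) or vehicle replicate 2 (4.55%), and 2 without both mice numbered 1 (2.39%) or both numbered 2 (5.34%). The 3 lower members were 5 without both mice numbered 2 (6.1%) or both numbered 3 (5.68%). Fits that left out a single library had no block. Without SP replicate 2 the log2FC of 18 of 31 members moved by over 1.5 times, and 5 of them changed sign, while leaving out each other library moved 8 to 12. DESeq2 with the same block called 0 members and limma-voom called 0, while edgeR with no filter on low counts called 3, Sema3a, Plxnc1 and Plxnd1, where 1.37% of all genes were called. In that DESeq2 fit Sema3a and Sema3g were given no FDR, so that they could not be called. The FDR of members ran from 0.313 to 0.963. Members had a median log2FC of 0.03, against 0.0015 for all genes tested. The median was 0.12 for the 20 semaphorins and -0.01 for the 11 receptors. Leaving out libraries moved the median of all members between -0.029 and 0.082, and that of the receptors between -0.066 and 0.036.

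**Figure D1:**
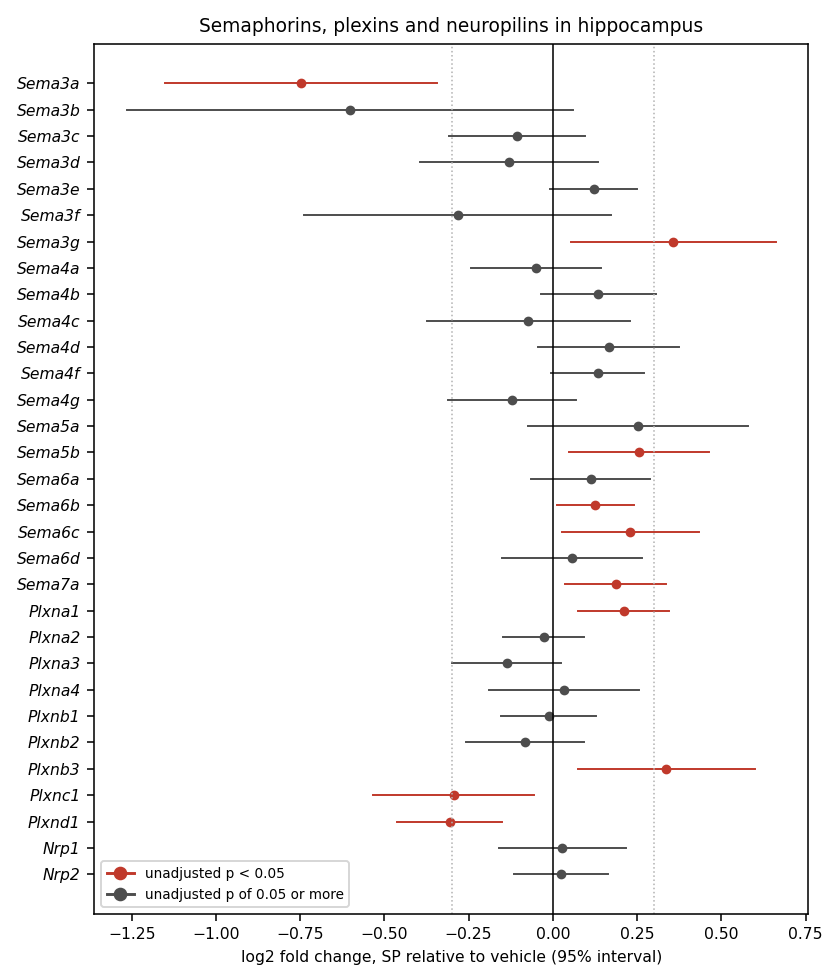
Log2 fold change of each of the 31 members, SP relative to vehicle, with 95% intervals from edgeR; red marks an unadjusted p below 0.05 and dotted lines mark the minimum fold change of 0.3 in either direction. Sema3a lies lowest at -0.75 and Sema3g highest at 0.36.

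Promoter windows are shown for the 3 members that were lower in every SP library, Plxnd1, Sema3a and Plxnc1, and for Sema7a, the ligand of Plxnc1. They were taken from RefSeq on GRCm38.p6 and run from 250 bases before to 50 after an annotated start, 5' to 3' on the gene's strand, with capitals for the GC box GGGCGG on either strand. The Plxnd1 window lies at chr6:115994956-115995255 on the minus strand, that of Sema3a at chr5:13396534-13396833 on the plus strand, that of Plxnc1 at chr10:94944796-94945095 on the minus strand and that of Sema7a at chr9:57939862-57940161 on the plus strand. The Sema3a window lies inside the gene as annotated by GENCODE, which runs over chr5:13125414-13602565 on the plus strand. In the same annotation on GRCm38, Plxnd1 runs over chr6:115954811-115995005 and Plxnc1 over chr10:94790866-94944835, both on the minus strand, and Sema7a over chr9:57940112-57962865 on the plus strand.
Plxnd1: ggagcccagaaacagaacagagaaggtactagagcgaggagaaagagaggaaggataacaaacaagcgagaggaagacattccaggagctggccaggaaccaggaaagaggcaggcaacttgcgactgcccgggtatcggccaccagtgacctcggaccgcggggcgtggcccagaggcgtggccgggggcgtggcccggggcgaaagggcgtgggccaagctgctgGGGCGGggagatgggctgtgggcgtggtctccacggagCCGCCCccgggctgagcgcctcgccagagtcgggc
Sema3a: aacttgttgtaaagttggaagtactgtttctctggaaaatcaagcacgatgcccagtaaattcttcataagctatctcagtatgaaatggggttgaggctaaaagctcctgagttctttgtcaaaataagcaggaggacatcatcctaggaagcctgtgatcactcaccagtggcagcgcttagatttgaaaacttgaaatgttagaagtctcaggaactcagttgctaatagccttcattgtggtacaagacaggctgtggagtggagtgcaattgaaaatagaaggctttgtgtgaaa
Plxnc1: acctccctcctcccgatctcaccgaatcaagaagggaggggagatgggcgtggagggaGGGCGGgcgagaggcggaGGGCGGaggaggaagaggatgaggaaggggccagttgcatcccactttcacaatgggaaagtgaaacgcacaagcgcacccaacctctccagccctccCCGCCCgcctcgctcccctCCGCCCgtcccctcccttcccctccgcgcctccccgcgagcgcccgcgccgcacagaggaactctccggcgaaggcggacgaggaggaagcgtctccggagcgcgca
Sema7a: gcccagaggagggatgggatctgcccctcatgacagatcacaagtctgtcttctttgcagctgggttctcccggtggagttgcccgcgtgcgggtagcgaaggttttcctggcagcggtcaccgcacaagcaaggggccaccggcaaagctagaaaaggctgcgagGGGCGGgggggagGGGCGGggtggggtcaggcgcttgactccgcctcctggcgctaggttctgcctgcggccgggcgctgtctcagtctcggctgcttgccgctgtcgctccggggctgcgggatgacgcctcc
The Plxnc1 window held 4 GC boxes, the Plxnd1 and Sema7a windows 2 each and the Sema3a window 0. Its GC content was 41.3%, against 67% for Plxnd1, 69% for Plxnc1 and 67.3% for Sema7a. A window was matched for 26 of the 31 members, 37 windows in all. GC boxes were present in 27 of these (73%), against 35.66% of all 32851 windows, and the median GC content was 63.7% against 52.7%. On either strand, CCAAT was found in 7 member windows (18.9%; all windows 37.41%), TGANTCA, the AP-1 motif, in 3 (8.11%; all windows 7.808%), and TATAAA and TGACGTCA, the cAMP response element, in 0 (all windows 13.62% and 1.79%). Some members have several windows, and those of Sema4a at chr3:88458835-88459134 and chr3:88459052-88459351 share sequence. These matches are descriptions of letters only.

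Sema3a, a secreted repellent of axons that binds Nrp1, had the lowest log2FC of the members. It was measured at 6.45, 4.16 and 5.19 CPM in the vehicle libraries and at 2.98, 3.07 and 3.23 CPM in the SP libraries. All SP values lay below all vehicle values. The SD was 0.127 CPM in SP and 1.14 CPM in vehicle, and a difference in spread was not tested. The counts behind the values were 150, 103 and 143 in vehicle against 70, 74 and 72 in SP. The log2FC was -0.75 ± 0.17 (SE), at an unadjusted p of 0.0031 and FDR = 0.335. Per length it was also the member of lowest level, at 0.888 ± 0.193 CPM per kb in vehicle (SD).

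Among the other secreted members, Sema3g, which acts through Nrp2, was at 4.60, 4.24 and 4.72 CPM in vehicle and at 5.84, 6.02 and 5.52 CPM in SP. The groups did not overlap, with a log2FC of 0.36 ± 0.13 (SE) and FDR = 0.437. Sema3e, which binds Plxnd1 without a neuropilin, was at 62.3, 65.3 and 61.3 CPM in vehicle and 66.2, 74.1 and 65.4 CPM in SP. These groups were also separate, by a narrow margin, with a log2FC of 0.12 at an unadjusted p of 0.061, and of 0.06 without SP replicate 2. Sema3c had a log2FC of -0.11 and Sema3d of -0.13, with groups that overlapped.

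Sema3b and Sema3f, both ligands of Nrp2, had their lowest value in the same library. Sema3b was at 13.8, 13.1 and 14.3 CPM in vehicle and at 4.18, 10.3 and 14.7 CPM in SP. SP replicate 3 thus held the highest value of the 6 libraries and SP replicate 1 the lowest. Its log2FC was -0.60 (FDR = 0.524) and -0.14 without SP replicate 1. Sema3f was at 6.92, 9.13 and 5.81 CPM in vehicle and 3.88, 7.31 and 6.96 CPM in SP, with a log2FC of -0.28, or -0.03 without SP replicate 1. The 8 choroid plexus markers summed to 175 CPM in SP replicate 1 and to 2817 to 4766 CPM in the other 5 libraries, and Ttr, the transthyretin gene of choroid plexus, was at 125 CPM there against 2542 to 4300 CPM elsewhere. None of these markers was at 0 in any library. Their part in the Sema3b and Sema3f values was not tested.

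The membrane-bound semaphorins of class 5 to 7 had a positive log2FC in 7 of 7, though that of Sema6d was -0.05 without SP replicate 2. Of class 4, which also spans the membrane, 3 of 6 were positive, and of all genes tested 50.5% were. Sema5b, a transmembrane ligand that binds class A plexins, was at 14.2, 16.2 and 16.2 CPM in vehicle and at 17.8, 21 and 17.1 CPM in SP. Every SP value was above every vehicle value, with a log2FC of 0.26 ± 0.09 (SE) and FDR = 0.430. Without SP replicate 2 the log2FC was 0.16, at an unadjusted p of 0.093. Sema5a was at 86.2, 100.2 and 101.7 CPM in vehicle and at 110.4, 153.5 and 87.0 CPM in SP. The value of SP replicate 2 stood above the rest and the groups overlapped. The log2FC of Sema5a was 0.25 with all libraries and 0.04 without SP replicate 2.

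Sema6c was at 23.9, 22.8 and 24.5 CPM in vehicle and at 27.5, 30.7 and 25.5 CPM in SP (log2FC 0.23, FDR = 0.451). Sema6b was at 118, 114 and 110.4 CPM in vehicle and 128, 123 and 123 CPM in SP (log2FC 0.13, FDR = 0.458). Both were separate between groups. Sema6a had a log2FC of 0.11 and Sema6d of 0.06, and their groups overlapped. Sema7a, the lipid-anchored ligand of Plxnc1, was at 91.4, 101.6 and 98.0 CPM in vehicle and at 109.9, 122 and 100.04 CPM in SP. SP replicate 3 lay within the vehicle range, with a log2FC of 0.19 and FDR = 0.428. Without SP replicate 2 the log2FC was 0.11, at an unadjusted p of 0.091.

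Class 4 semaphorins, which signal mainly through class B plexins, showed no unadjusted p below 0.05 in 6 of 6. Sema4f was at 46.4, 47.9 and 46.3 CPM in vehicle and 51.1, 54.8 and 48.5 CPM in SP, without overlap (log2FC 0.13, FDR = 0.505). The log2FC was 0.17 for Sema4d, 0.14 for Sema4b, -0.05 for Sema4a, -0.07 for Sema4c and -0.12 for Sema4g. Without SP replicate 2 that of Sema4d was 0.08 and that of Sema4g was -0.02. D430040D24Rik, which overlaps exons of Sema4c on the opposite strand, held 12 to 26 counts. The libraries were stranded, and sharing of reads between these genes was not tested.

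**Figure D2:**
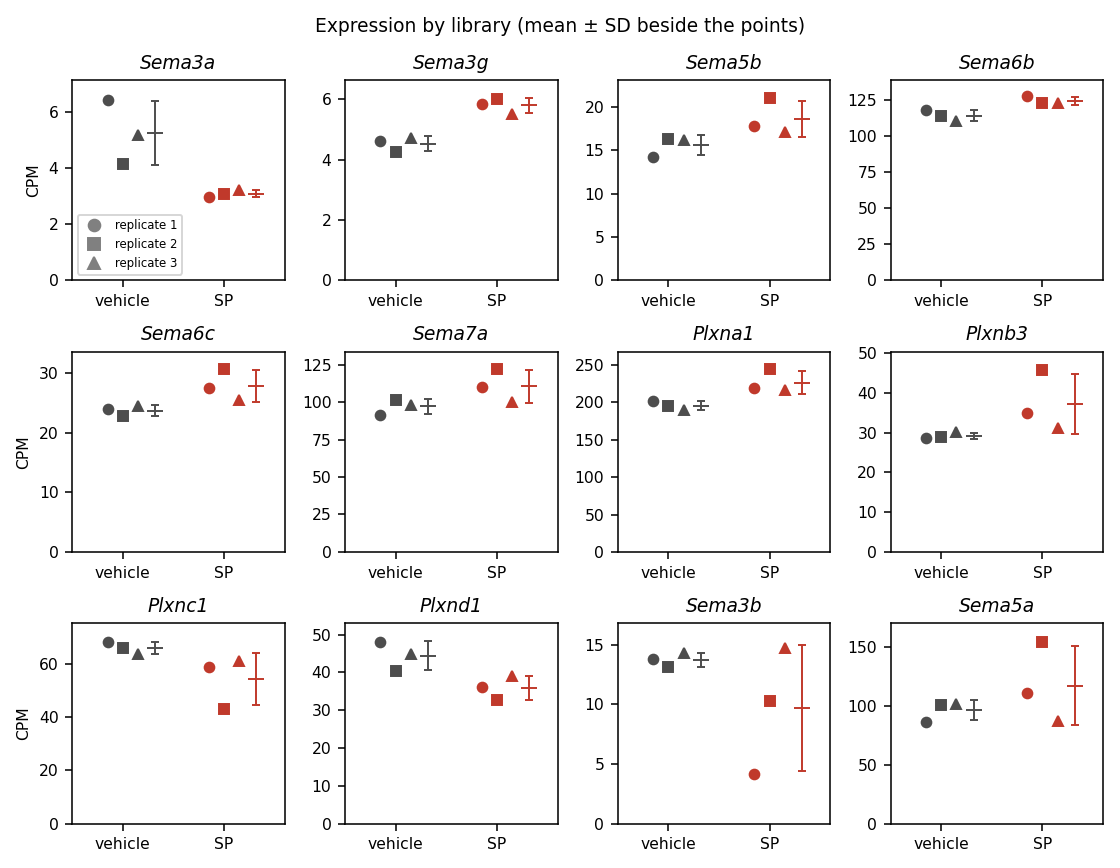
CPM in each library for the 10 members with an unadjusted p below 0.05 and for Sema3b and Sema5a; symbols mark the replicate number and bars show mean ± SD, n = 3. Sema3a lies at 2.98 to 3.23 CPM in SP and 4.16 to 6.45 CPM in vehicle, and Sema5a and Plxnb3 have their highest value in SP replicate 2.

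Of the receptors, Plxnd1, which binds Sema3e and is known from blood vessels and neurons, had the lowest unadjusted p of the members. It was at 48.1, 40.4 and 44.8 CPM in vehicle and at 36.0, 32.6 and 39.1 CPM in SP. The highest SP value, 39.1 CPM, lay just below the lowest vehicle value of 40.4 CPM. The log2FC was -0.31 ± 0.07 (SE), at an unadjusted p of 0.0022 and FDR = 0.313. Plxnc1 was at 68.2, 66.1 and 63.6 CPM in vehicle and at 58.9, 43.1 and 61.0 CPM in SP. SP replicate 2 was the lowest, and the log2FC was -0.29 ± 0.10 (SE; FDR = 0.429) with it and -0.14 without it.

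Plxna1, a class A plexin that works with neuropilins and with class 6 semaphorins, was at 201, 195 and 190 CPM in vehicle and at 218, 245 and 216 CPM in SP. All SP values were above all vehicle values, with a log2FC of 0.21 ± 0.06 (SE), an unadjusted p of 0.0075 and FDR = 0.372. The antisense gene Gm26811, which overlaps its exons, held 0 to 2 counts per library. Plxnb3, a class B plexin that binds Sema5a and is found in oligodendrocytes, was at 28.5, 28.8 and 30.1 CPM in vehicle and at 34.9, 45.7 and 31.1 CPM in SP. The groups were separate, with a log2FC of 0.34 ± 0.11 (SE) and FDR = 0.418, and without SP replicate 2 the log2FC was 0.18.

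The remaining receptors had overlapping groups. Plxna4 had a log2FC of 0.03, Plxna2 of -0.03, Plxna3 of -0.14, Plxnb1 of -0.01 and Plxnb2 of -0.08. Nrp1, the co-receptor of Sema3a, was at 67.2, 67.4 and 60.8 CPM in vehicle and 58.7, 77.5 and 64.0 CPM in SP, with a log2FC of 0.03 and a 95% interval from -0.16 to 0.22. Nrp2 was at 90.1, 89.1 and 86.8 CPM in vehicle and 87.5, 99.0 and 84.5 CPM in SP, with a log2FC of 0.02 and an interval from -0.12 to 0.17.

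**Figure D3:**
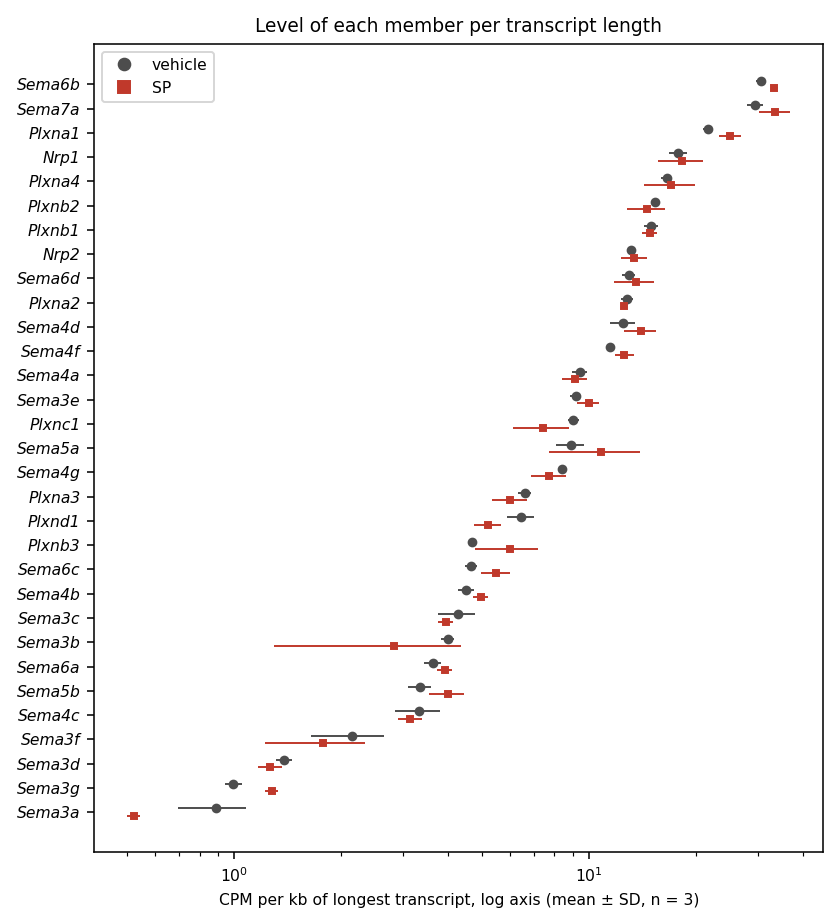
Level of each member as CPM per kb of its longest transcript (log axis), mean ± SD of 3 vehicle and 3 SP libraries. Sema6b and Sema7a lie highest, at 30.5 and 29.4 CPM per kb in vehicle, and Sema3a lowest.

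Per length of the longest transcript, in vehicle, Sema6b (30.5 ± 1.05 CPM per kb, SD) and Sema7a (29.4 ± 1.56) led. Their order turned with the union of exons, where Sema7a was at 29.4 and Sema6b at 28.8 CPM per kb, and in SP, where they were at 33.6 and 33.3 CPM per kb of the longest transcript. Plxna1 followed at 21.6, Nrp1 at 17.9 and Plxna4 at 16.6 CPM per kb. The place of Nrp1 also depended on the length used, being rank 4 with the longest transcript and rank 14 with the union of exons. At the lower end were Sema3f at 2.15, Sema3d at 1.38, Sema3g at 0.995 and Sema3a at 0.888 CPM per kb.

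SP replicate 2 held the highest value for 14 of the 31 members (45.2%), against 24.4% of all genes tested. The 12 oligodendrocyte markers summed to 6962 CPM in this library, to 5410 and 4870 CPM in the other SP libraries and to 4245 to 4756 CPM in vehicle. All 12 had a positive log2FC, 9 with an unadjusted p below 0.05, at a median of 0.34. The 9 neocortex and subiculum markers summed to 211 CPM in SP replicate 2, to 244 and 245 CPM in the other SP libraries and to 258 to 260 CPM in vehicle, with a median log2FC of -0.24 and 9 of 9 negative. Dentate granule cell markers had a median log2FC of 0.25, CA2 and CA3 markers of 0.23 and leptomeningeal markers of -0.25, while endothelial, microglial and astrocyte markers had medians of 0.01, -0.02 and -0.01. Summed, the dentate granule cell markers were at 277, 314 and 194 CPM in SP replicates 1, 2 and 3. In vehicle they were at 207 to 222 CPM, above SP replicate 3. The medians were -0.03 for CA1, 0.02 for oligodendrocyte precursor, 0.01 for mural and -0.07 for GABAergic interneuron markers, and -1.13 for choroid plexus. The GABAergic interneuron markers summed to 544 CPM in SP replicate 2 and to 678 to 757 CPM in the other libraries. No marker was a DEG, and none was at 0. The part of these differences in the values of Plxnb3, Sema5a, Plxnc1 and other members was not tested.

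**Figure D4:**
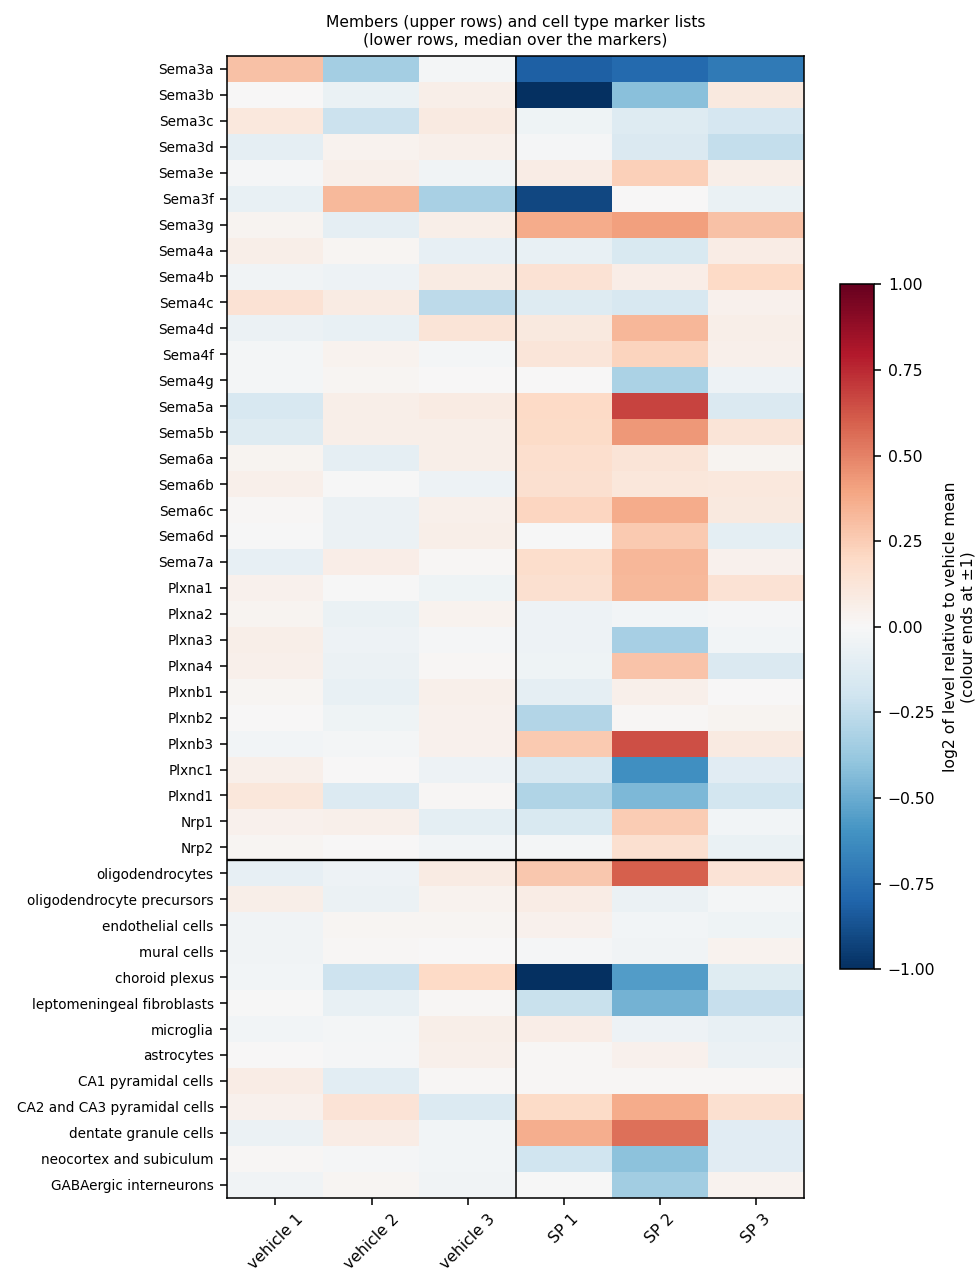
Log2 level of each member (upper rows) and median relative level of each marker list (lower rows) in each library, relative to the vehicle mean, with colours ending at ±1. SP replicate 2 is the reddest column for Sema5a and Plxnb3 and for the oligodendrocyte, dentate granule cell, and CA2 and CA3 markers. SP replicate 1 is the bluest for Sema3b, Sema3f and choroid plexus markers.

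Ligand and receptor were then set side by side within each library, as the log2 ratio of their CPM relative to the vehicle mean. The 13 pairs were chosen after the members' values were seen, so that no test is given. The ratios restate those values, and no background share of non-overlap was computed for them, so that they add no separate evidence. Sema3a to Nrp1 was at 0.27, -0.37 and 0.10 in vehicle and at -0.65, -1.01 and -0.66 in SP, with all SP values lower. Sema7a to Plxnc1 was at -0.13, 0.06 and 0.07 in vehicle and at 0.34, 0.95 and 0.16 in SP, with all SP values higher and SP replicate 2 the highest. Sema3e to Plxnd1 was at -0.13, 0.19 and -0.05 in vehicle and at 0.37, 0.68 and 0.24 in SP, also without overlap. The ratio was also higher in each SP library for Sema3g to Nrp2, Sema5b to Plxna3 and Sema6a to Plxna2, and lower for Sema6d to Plxna1. The other 6 ratios overlapped, Sema6a to Plxna4 among them. Other receptors of a ligand, such as Plxna1 for Sema5b or Plxnb3 for Sema5a, were not compared.

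**Figure D5:**
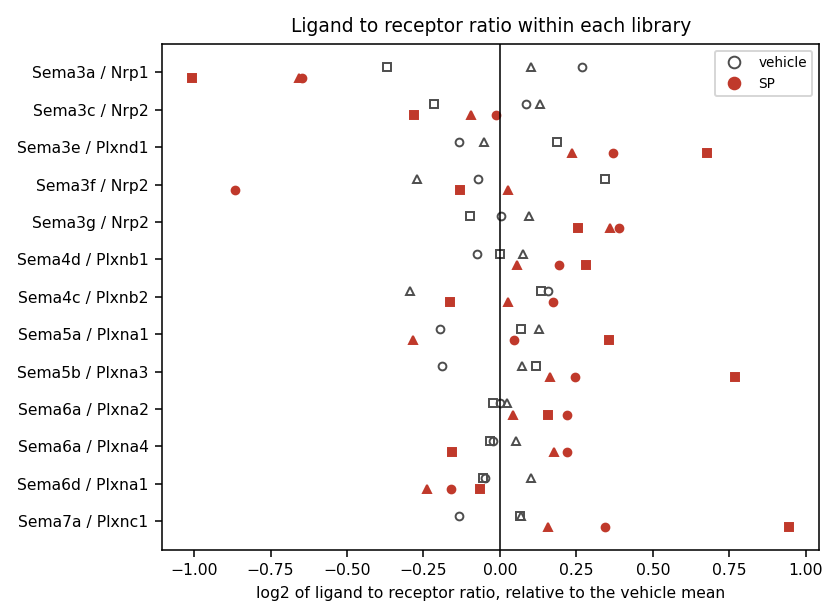
Log2 ratio of ligand to receptor CPM in each library relative to the vehicle mean for 13 pairs, with open symbols for vehicle and filled symbols for SP. Sema3a to Nrp1 lies lower in all SP libraries, and Sema7a to Plxnc1 and Sema3e to Plxnd1 lie higher.

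Other genes of the pathway were described from a list of 46 co-receptors, VEGF ligands of neuropilins and cytoplasmic partners. All 46 were tested, 0 were DEGs, 0 were higher (background 4.48%) and 2 lower (4.35%; background 5.59%) at an unadjusted p below 0.05, and the median log2FC was -0.02. Without overlap, 1 gene was higher (2.17%; background 9.19%) and 7 were lower (15.2%; background 9.03%), which were Itgb1, Itga1, Farp1, Rnd1, Rnd3, Gsk3b and Pak1. Itgb1, the integrin subunit through which Sema7a also signals, had a mean of 64.5 CPM in vehicle and 56.4 CPM in SP (log2FC -0.20, FDR = 0.415). Dpysl5, a collapsin response mediator protein, had 36.4 and 31.9 CPM (log2FC -0.20, FDR = 0.492), with overlap. Its lowest value was 25.8 CPM in SP replicate 2, and its unadjusted p was below 0.05 in 6 of 17 alternatives. Among 10 co-receptors and other receptors 8 had a negative log2FC, and among 32 cytoplasmic partners 16 were negative. Met, a receptor that pairs with class B plexins, was at 7.03 CPM in vehicle and 4.63 CPM in SP on average (log2FC -0.64, FDR = 0.501), with overlap. The lowest value of Met was 2.66 CPM in SP replicate 2, against 4.94 and 6.29 CPM in the other SP libraries. Crmp1, which relays the Sema3a signal, was at 199.5 and 218 CPM (log2FC 0.13, FDR = 0.513), the 1 gene higher without overlap.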

How the data were processed

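Hippocampal RNA of 6 mice, 3 of them given SP and 3 saline, was sequenced from TruSeq stranded mRNA libraries. The deposited values are estimated counts per gene, which the authors made with Trim Galore, STAR on GRCm38 and Salmon; their annotation release is not given in the sources used here. The groups were taken from the names of the deposited columns, Ctrl for vehicle and SP for SP. The sign of each log2FC rests on these names, which were not tested against another source. Counts were rounded (9.77% of values were not whole). Genes were kept by filterByExpr (minimum count 10, minimum total 15), normalized by TMM and tested with edgeR 4.0.16 in R 4.3.3 with the replicate number as a block, as the study adjusted for replicates. P-values were adjusted by Benjamini-Hochberg over all 17069 genes tested, and DEGs had FDR < 0.1 and |log2FC| > 0.3. DESeq2 1.42.0, limma 3.58.1 (voom), other normalizations and filters and the omission of each library were alternatives. Coordinates, transcript lengths and gene overlaps came from GENCODE M21, the reference supplied here. The fits were also run on counts simulated with independent noise for each gene and no replicate effect, from which no result is given here. The labels call the replicate number a batch; libraries of the same number had deviations from their group means that correlated at 0.012, -0.08 and 0.039 across genes.

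The members, lists and ligand to receptor pairs were chosen with earlier results of these data known; every member is named, and of the pathway genes the 2 with an unadjusted p below 0.05, with Met, Crmp1 and the genes without overlap chosen after their values were seen.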

Additional observations from a re-analysis of the deposited data

How the results depend on the processing

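Members called as DEGs numbered 3 with no filter on low counts (Sema3a, Plxnc1 and Plxnd1; 1.37% of all genes), 2 with DESeq2 and no replicate block (Sema3a and Plxnd1; 0.79% of all genes), and 0 to 2 when a library or replicate number was left out, the 2 without SP replicate 3 being Plxnb3 and Plxnd1 (2.11% of all genes); the other alternatives, edgeR with no replicate block included, called 0. Fits without a single library had no replicate block. DESeq2 with the block gave no FDR for Sema3a and Sema3g, which could not be called there. Over all genes, 5 DEGs became 2 with edgeR and no replicate block, 384 with no filter, 0 with at least 10 counts in every library, 2 with limma-voom, 36 with DESeq2 and the block, 132 with DESeq2 and no replicate block, 0 at FDR < 0.05 and 1 to 357 on leaving out libraries. Members higher at an unadjusted p below 0.05 numbered 3 with DESeq2 and the block and 2 to 11 on leaving out libraries (11 without SP replicate 3), and lower members 2 to 5. On leaving out libraries the median log2FC ranged from 0.0513 to 0.138 for semaphorins and from -0.0348 to -0.000817 for pathway genes, and took both signs for all members (-0.0292 to 0.0824) and for receptors (-0.0665 to 0.0359). The log2FC took both signs for Sema4a (-0.157 to 0.0117), Sema4c (-0.264 to 0.0310), Sema6d (-0.0758 to 0.160), Plxna4 (-0.124 to 0.125), Plxnb1 (-0.0799 to 0.0359), Plxnb2 (-0.152 to 0.0209), Nrp1 (-0.0862 to 0.138) and Nrp2 (-0.0428 to 0.0682). Sema3a, Plxna1 and Plxnd1 kept an unadjusted p below 0.05 in 17 of 17 alternatives. The causes were not tested, and 3 mice per group limit the precision of each value.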
